A study of Mus musculus with 2 samples.

Results

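The equilibrative nucleoside transporters Slc29a1, Slc29a2 and Slc29a3 and 6 genes of choline uptake and phosphatidylcholine synthesis (Slc44a1, Chka, Chkb, Pcyt1a, Chpt1 and Cept1) were examined in HT22 cells, a mouse hippocampal nerve cell line, after 1 h of exposure to the neurotrophic compound J147. These 9 genes are part of 18193 that have, in the annotation of the arrays, a group of probes of their own. They were chosen by name, from J147 minus vehicle differences of these same arrays that were already known, so all their differences are given as a description, with no test. Both cultures were grown overnight in DMEM with 10% FCS. One was then treated with J147, for which the labels give 10 mM and the methods the same figure in μM. The other, called vehicle here, has DMSO vehicle for the same time in its title, while its treatment label reads untreated. RNA of each culture was hybridized to 1 Affymetrix GeneChip that covers the mouse genome. With 1 array per condition there is no replicate error, and an effect of J147 and some other difference of the cultures cannot be told apart. In RNA from a whole culture, a change in some cells and a smaller change in every cell cannot be told apart either.

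Equilibrative nucleoside transporters carry nucleosides such as adenosine and uridine across membranes down their concentration gradient. Slc29a1 (ENT1) and Slc29a2 (ENT2) act mainly at the cell surface, and Slc29a3 (ENT3) acts in lysosomes and other internal membranes. In the brain these proteins take part in the clearance of extracellular adenosine. Phosphatidylcholine, the main phospholipid of most mammalian membranes, is made from choline in the CDP-choline (Kennedy) pathway. Slc44a1 imports choline, the choline kinases Chka and Chkb phosphorylate it, Pcyt1a makes CDP-choline in the step that usually limits the rate, and Chpt1 and Cept1 join the phosphocholine group to diacylglycerol.

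Of these 9 genes, Slc29a2 and Chka were higher on the J147 array by every probe set that measures them. The other 7 stayed within 1.5-fold by every probe set. Even so, 1 probe set of Chpt1, with a log2 difference of -0.43, differed more in size than the lowest of Chka, with 0.31. A probe set is a group of short probes for 1 transcript region, and the members have 22 that the annotation gives to 1 gene. A further probe set is shared by Chkb, the neighbouring gene Cpt1b and the locus Gm44502, and was not assigned to any of them. It had 1 identical deposited log2 intensity of 2.28 on both arrays. After both arrays were brought to a median intensity of 100, a probe set was scored if its mean was above 100. This held for 18 of the 22. The other 4, 1 of Slc29a3 and 3 of Slc44a1, lay within 0.01 log2 units of the table's minimum for vehicle and for J147, where a change cannot be seen. That minimum was at scaled intensities of 95.4 for vehicle and 95.1 for J147, just under the cutoff, so a scored probe set can still lie close to it. Of the 18 scored probe sets, 3 passed 2-fold upward with J147 and 0 passed it downward. With 50 added to each scaled intensity the first count was 1, a probe set of Chka, and both probe sets of Slc29a2 were just under 2-fold. Over all 22545 scored probe sets, with nothing added, the shares were 0.0754% and 0.071%. At 1.5-fold, 4 of the 18 were higher and 0 were lower, beside 0.856% and 0.781% of all scored probe sets. All 4 belonged to Slc29a2 and Chka. The median log2 difference of the 18 was -0.02, and that of all scored probe sets was -0.00. The latter is the value of a probe set with identical deposited log2 intensities on both arrays. Such probe sets lower every share past a fold that is given over scored probe sets or genes, and counts out of all scored ones include them. How many there are was not counted. Because Slc29a2 was picked for its difference, nothing is read from these shares about the members as a set.

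**Figure D1:**
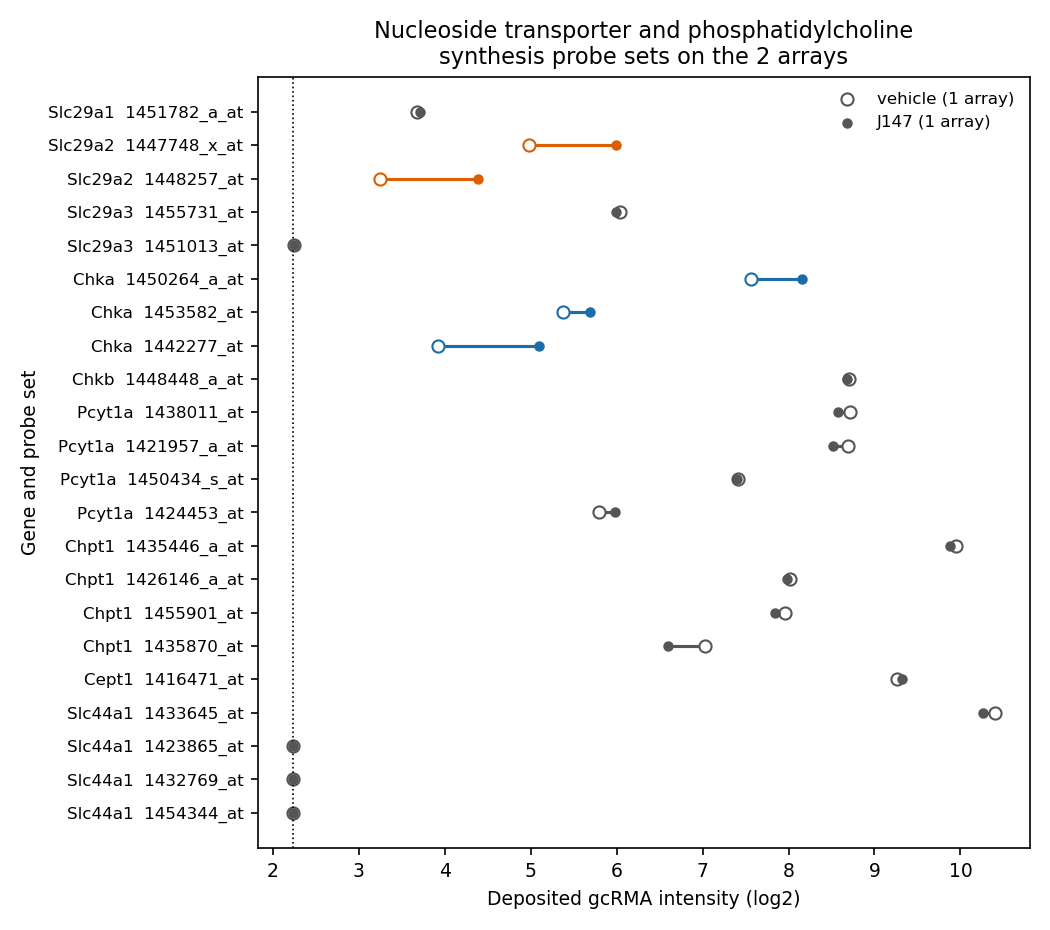
Deposited gcRMA intensity on the log2 scale (horizontal axis) of the 22 member probe sets (vertical axis), with open circles for vehicle, filled circles for J147 and 1 array per condition. The dotted line is the table's minimum. Bars of Slc29a2 are orange and those of Chka blue, and the grey bar of Chpt1 1435870_at is longer than the shortest bar of Chka. The levels of different probe sets are not comparable with each other.

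The promoters of Slc29a2 and Chka, the 2 members with the largest differences, are shown. Both genes lie on chromosome 19, with 57 protein-coding genes between them, and whether they share any control was not tested. Each window runs from 250 bases before to 50 bases after the annotated start of the gene and is taken from RefSeq in build GRCm38.p6. Slc29a2 lies at chr19:5023756-5024055 and Chka at chr19:3851523-3851822, both on the plus strand, and capitals mark the motif matches described next.
Slc29a2: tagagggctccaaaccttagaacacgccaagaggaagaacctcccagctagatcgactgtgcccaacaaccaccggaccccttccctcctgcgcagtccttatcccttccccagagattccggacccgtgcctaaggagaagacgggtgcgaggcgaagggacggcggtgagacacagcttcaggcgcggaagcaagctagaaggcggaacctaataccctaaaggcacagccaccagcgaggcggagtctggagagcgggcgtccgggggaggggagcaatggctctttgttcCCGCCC
Chka: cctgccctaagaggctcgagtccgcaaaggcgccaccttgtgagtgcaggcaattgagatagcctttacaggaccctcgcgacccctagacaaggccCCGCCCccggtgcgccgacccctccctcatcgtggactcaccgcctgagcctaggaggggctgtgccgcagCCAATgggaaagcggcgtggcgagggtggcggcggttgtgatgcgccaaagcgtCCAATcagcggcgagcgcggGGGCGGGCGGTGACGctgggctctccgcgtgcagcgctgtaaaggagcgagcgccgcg

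Both strands were searched for the letters of 8 motifs that are bound by known transcription factors. The EGR motif was GCGTGGGCG and is held by 0.612% of 32851 promoter windows of this length. The full cyclic AMP response element was TGACGTCA, in 1.79% of the windows, and its short core, which lies within it, was TGACG, in 20.8%. AP-1 was searched as TGANTCA, in 7.81%, the E-box as CACGTG, in 7.15%, the serum response factor site by its CArG box, in 1.63%, SP1 as GGGCGG, in 35.7%, and NF-Y as CCAAT, in 37.4%. The Slc29a2 window held 1 match, an SP1 motif on the opposite strand at its last bases, 295 to 300 counted from the 5′ end. The Chka window held 3 SP1 motifs, at bases 98 to 103, 243 to 248 and 247 to 252, of which the last pair overlap. It also held 2 NF-Y motifs, at bases 169 to 173 and 223 to 227, and 1 short core of the cyclic AMP response element, at bases 253 to 257. Thus SP1 was the only motif of the 8 that both windows held. Every other member also held SP1 in at least 1 of its windows, so this motif does not set Slc29a2 and Chka apart. NF-Y and the short core were also found in windows of other members, such as that of Chkb. Neither window held the EGR motif, the full cyclic AMP response element, AP-1, the CArG box or the E-box, which says only that those letters are not in these 300 bases. GC content was 61.7% for the Slc29a2 window and 68.7% for the Chka window. The median over the 21 windows of the 9 members was 64.3%, and over all windows it was 52.7%.

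Slc29a2 had 2 scored probe sets, and both were more than 2-fold higher on the J147 array. Probe set 1448257_at, whose representative sequence is the RefSeq mRNA, read 193 in scaled intensity with vehicle and 424 with J147. Its log2 difference was 1.14, a fold of 2.20. This was 4.91 times the SD of 0.23 among the log2 differences of its 500 scored neighbours in level, a spread between probe sets of the same 2 arrays and not between cultures. Some scored probe sets have identical deposited values on both arrays, which makes such an SD smaller. How many of them are among the neighbours was not counted. Probe set 1447748_x_at read 638 with vehicle and 1286 with J147, a log2 difference of 1.01 and a fold of 2.02. The suffix _x_at marks probe sets with probes that may bind other transcripts. The SD among its neighbours in level was 0.21. Only 8 of the 22545 scored probe sets were as much higher as 1448257_at, itself included, and 16 as 1447748_x_at. The deposited log2 intensity of 1448257_at on the vehicle array was 1.02 units above the table's minimum, and that of 1447748_x_at was 2.74 units above it, so the transcript was measured at a low signal without J147. With 50 added to each scaled intensity, the log2 differences were 0.97 for 1448257_at and 0.96 for 1447748_x_at.

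The other transporters of the family showed no such difference. Slc29a1, measured by the single probe set 1451782_a_at, read 259 with vehicle and 264 with J147, a log2 difference of 0.03 with an SD of 0.22 among its neighbours. Its deposited log2 intensity was 1.44 units above the lowest value on the vehicle array, so both surface transporters were read at a low signal. For Slc29a3, probe set 1455731_at went from 1336 to 1284, a log2 difference of -0.06. Its other probe set, 1451013_at, lay at the table's minimum with and without J147. Thus Slc29a2 was the 1 transporter of the 3 with a difference larger than the spread of its neighbours in level.

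Chka was higher with J147 by all 3 of its probe sets, although by different amounts. Probe set 1450264_a_at, which represents the RefSeq mRNA and had the brightest signal of the 3, read 3831 with vehicle and 5786 with J147. Its log2 difference of 0.59, a fold of 1.51, was 3.11 times the SD of 0.19 among its neighbours in level. Probe set 1442277_at went from 307 to 689, a log2 difference of 1.17 and a fold of 2.25, with an SD of 0.25 among its neighbours. Probe set 1453582_at went from 840 to 1044, a log2 difference of 0.31 and a fold of 1.24, with an SD of 0.22. The fold for Chka therefore ran from 1.24 to 2.25 with the probe set used, and the 2 dimmer probe sets lay on either side of the brightest one. The annotation gives expressed sequences and not the RefSeq mRNA as the source of those 2, and whether they read the same transcript form was not tested. Of all scored probe sets, 7 were as much higher as 1442277_at, 182 as 1450264_a_at and 838 as 1453582_at, each counted with itself. Counted as genes by the brightest probe set, Chka was at place 56 from the top of 10611 and Slc29a2 at place 6.

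**Figure D2:**
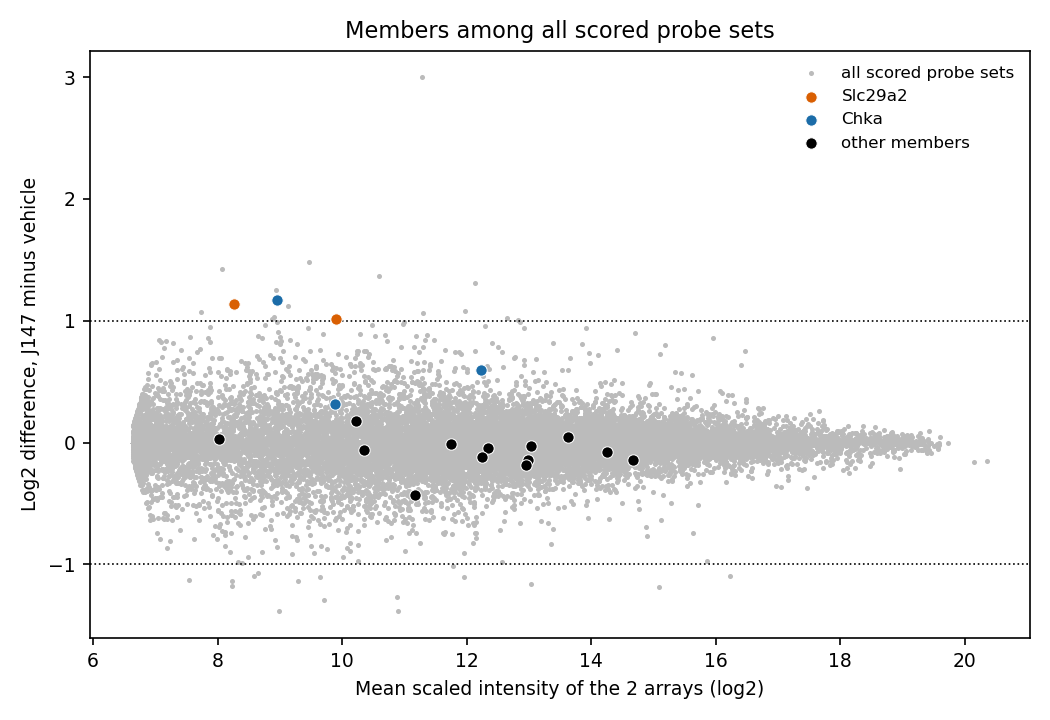
Log2 difference, J147 minus vehicle (vertical axis), against the mean scaled intensity of both arrays on the log2 scale (horizontal axis) for all 22545 scored probe sets (grey) and the 18 scored member probe sets (coloured). Dotted lines mark 2-fold. The probe sets of Slc29a2 (orange) and Chka (blue) lie above 0, from 0.31 to 1.17, and those of the other members (black) lie from -0.43 to 0.18.

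Chkb, the second choline kinase, was at the same level on both arrays. Its probe set 1448448_a_at read 8441 with vehicle and 8296 with J147, a log2 difference of -0.02 with an SD of 0.15 among its neighbours. Thus Chka was at least 1.24-fold higher by each probe set and Chkb was within 1.02-fold, but with 1 array per condition the difference between the kinases was not tested.

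The enzymes after choline kinase differed in both directions and by less than 1.5-fold. Pcyt1a has 4 scored probe sets, of which 3 were lower and 1 was higher. Scaled intensities went from 8492 to 7708 for 1438011_at, a log2 difference of -0.14, and from 8405 to 7399 for 1421957_a_at, a log2 difference of -0.18. Probe set 1450434_s_at went from 3444 to 3408, a log2 difference of -0.02. In the other direction, 1424453_at went from 1126 to 1272, a log2 difference of 0.18. The SD among neighbours in level was between 0.17 and 0.24 for these 4 probe sets, so the differences of Pcyt1a were no larger than about that spread. Its paralogue Pcyt1b, which is not one of the 9 genes, went from 1521 to 1647 by its brightest probe set, a log2 difference of 0.11, and its other scored probe set read the same with and without J147.

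Chpt1, the cholinephosphotransferase of the Golgi, was slightly lower by all 4 of its probe sets. The brightest, 1435446_a_at, read 20040 with vehicle and 18969 with J147, a log2 difference of -0.08. The log2 differences of 1426146_a_at and 1455901_at were -0.04 and -0.12. Each of these 3 was smaller than the SD among its neighbours. The dimmest, 1435870_at, went from 2646 to 1964, a log2 difference of -0.43. That is 1.35-fold lower, and of all scored probe sets 460 were as much lower, itself included, or 2.04%. Cept1, which makes both phosphatidylcholine and phosphatidylethanolamine, read 12471 with vehicle and 12875 with J147, a log2 difference of 0.05. Slc44a1, the choline transporter, went from 27384 to 24752 by probe set 1433645_at, a log2 difference of -0.15 with an SD of 0.13 among its neighbours. Its other 3 probe sets lay at the table's minimum throughout. Leaving out Slc29a2 and Chka, all 13 scored member probe sets were within 1.5-fold, and 12 of them had a log2 difference smaller than 0.2 in size. Of all 22545 scored probe sets, 22176 were within 1.5-fold and 18597 were smaller than 0.2, so most probe sets were alike in this.

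How far probe sets of 1 gene agreed was also compared across the arrays, a comparison chosen after the values were seen. There were 5194 genes with 2 or more scored probe sets. Slc29a2 was the 1 gene among them with all its probe sets at least 2-fold higher. No gene had all of them at least 2-fold lower. The place of Slc29a2 depended on the setting: with quantile normalization, and with a trend of the difference with level removed, Hbegf joined it, and with 50 added to each scaled intensity no gene passed. At 1.5-fold, 11 genes were higher by all their probe sets, among them Slc29a2 but not Chka, and 10 were lower by all of them. Of 2262 genes with 3 or more scored probe sets, 5 were higher by at least 0.3 log2 units in every one, Chka, Celf4, Klf7, Rrp1b and Tiparp, and 6 were lower by as much. That size was set with the lowest value of Chka known, so its place in the 5 follows from the choice.

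**Figure D3:**
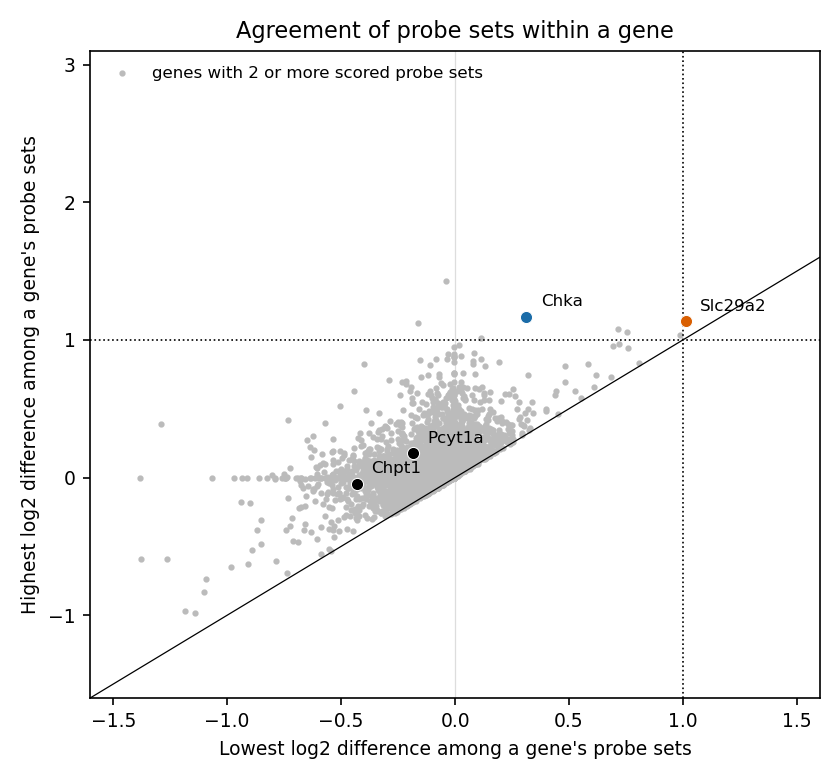
Highest (vertical axis) against lowest (horizontal axis) log2 difference, J147 minus vehicle, among the scored probe sets of each of 5194 genes with 2 or more of them. Dotted lines mark 2-fold higher and the diagonal marks equal values. Slc29a2 (orange) lies past both dotted lines, Chka (blue) at 0.31 and 1.17, and Pcyt1a and Chpt1 (black) lie near the bulk of genes.

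The 5 genes whose difference was most like that of Slc29a2, by the distance between log2 differences of the brightest probe sets over the 2 arrays, were Dusp4 (1.02), a phosphatase of MAP kinases, Mnt (1.00), a transcriptional repressor that pairs with Max, Plaur (0.99), the urokinase receptor, Hbegf (0.99), a ligand of the EGF receptor, and Cox7c (0.97), a subunit of cytochrome c oxidase. With 2 arrays, likeness means only a similar size of difference.

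The genes beside Slc29a2 and Chka on chromosome 19 differed less than either of them. Of the 3 protein-coding genes on each side of Slc29a2, 4 were scored, with log2 differences between -0.11 for B4gat1 and 0.21 for Rin1. Npas4, which lies next to it and encodes a neuronal activity-dependent transcription factor, was not scored. Of the 3 on each side of Chka, 4 were scored, with log2 differences between -0.02 for Ndufs8 and 0.10 for 1810055G02Rik. Between Chka and Slc29a2 lie 57 protein-coding genes, of which 31 were scored. Their log2 differences ran from -0.17 for Rbm14 to 0.36 for Lrfn4 around a median of -0.00. None reached 1.5-fold in either direction, beside 0.556% higher and 0.81% lower of all scored genes. With shares that low, finding none among 31 genes says little about this stretch of the chromosome.

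Genes that act before, after or beside the members were described from 9 lists, each gene by its brightest probe set. Of 137 genes listed, 122 have a probe set that the annotation gives to them alone, and 96 were scored. Of the 96, 0 differed by 2-fold upward or downward, beside 0.066% and 0.0754% of all 10611 scored genes, and 0 differed by 1.5-fold, beside 0.556% and 0.81%. Their log2 differences ran from -0.47 to 0.40 with a median of 0.01.

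On the nucleoside side, the concentrative transporter Slc28a3 and the transporter Slc29a4 were not scored. A list named for adenosine receptors and extracellular adenosine enzymes, not all of which act there, had 10 genes with their own probe sets. Of these, 5 were scored. Adora3, the only receptor among the 10, was not scored, nor were Entpd1, Entpd3, Enpp3 and Dpp4. Nt5e, Entpd2, Entpd5, Entpd6 and Alpl each had an identical deposited value on both arrays by the brightest probe set. Nt5e and Alpl were read close to the table's minimum, at scaled intensities of 114 and 108 with vehicle, where a change is hardly visible, and the other probe sets of Entpd5 had log2 differences between -0.09 and 0.13. The 24 scored enzymes of nucleoside salvage and breakdown had a median log2 difference of 0.04. The largest differences were -0.47 for Xdh, xanthine dehydrogenase, and -0.28 for Ampd3, an AMP deaminase. Adenosine kinase (Adk), which removes adenosine inside the cell, had -0.17. The 19 scored enzymes of de novo nucleotide synthesis had a median of 0.07, with 0.28 for Gart and 0.23 for Ppat, both of purine synthesis. The other 3 scored probe sets of Gart lay between -0.34 and 0.10, so its direction depended on the probe set.

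On the lipid side, 4 other transporters of choline or related cations had a median log2 difference of -0.01, with Slc22a4 at 0.21 and Slc22a5 at -0.12. The neuronal choline transporter Slc5a7, and Chat, which makes acetylcholine, were not scored. For 4 scored genes that use choline outside the pathway or make phosphatidylcholine by another route the median was 0.00, with Pemt at 0.04 and Bhmt at 0.01. A list of 7 scored genes, 6 of phosphatidylethanolamine and phosphatidylserine synthesis together with Pcyt1b, had a median of -0.03. Selenoi, the ethanolaminephosphotransferase, had -0.31, with its other probe sets between -0.15 and 0.37, and the ethanolamine kinase Etnk1 had -0.15, with the others between -0.48 and 0.05. The 14 genes of diacylglycerol supply had a median of 0.02, with 0.32 for the acyltransferase Gpat3 and -0.14 for the phosphatidate phosphatase Lpin1. The list for phosphatidylcholine remodelling and breakdown, which also holds sphingomyelinases and lipid transfer proteins, had 19 scored genes and a median of -0.00. In it the sphingomyelin synthase Sgms2 had 0.40 and the acid sphingomyelinase Smpd1 had -0.36. The other probe set of each had identical values on both arrays. Read by the brightest probe set of each gene, no scored gene of these lists differed by as much as Slc29a2 or Chka. Because the members were chosen with their differences known, nothing is read from this comparison. By another probe set Gdpd1, a glycerophosphodiester phosphodiesterase, had a log2 difference of -0.90, larger in size than the 0.59 of Chka.

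**Figure D4:**
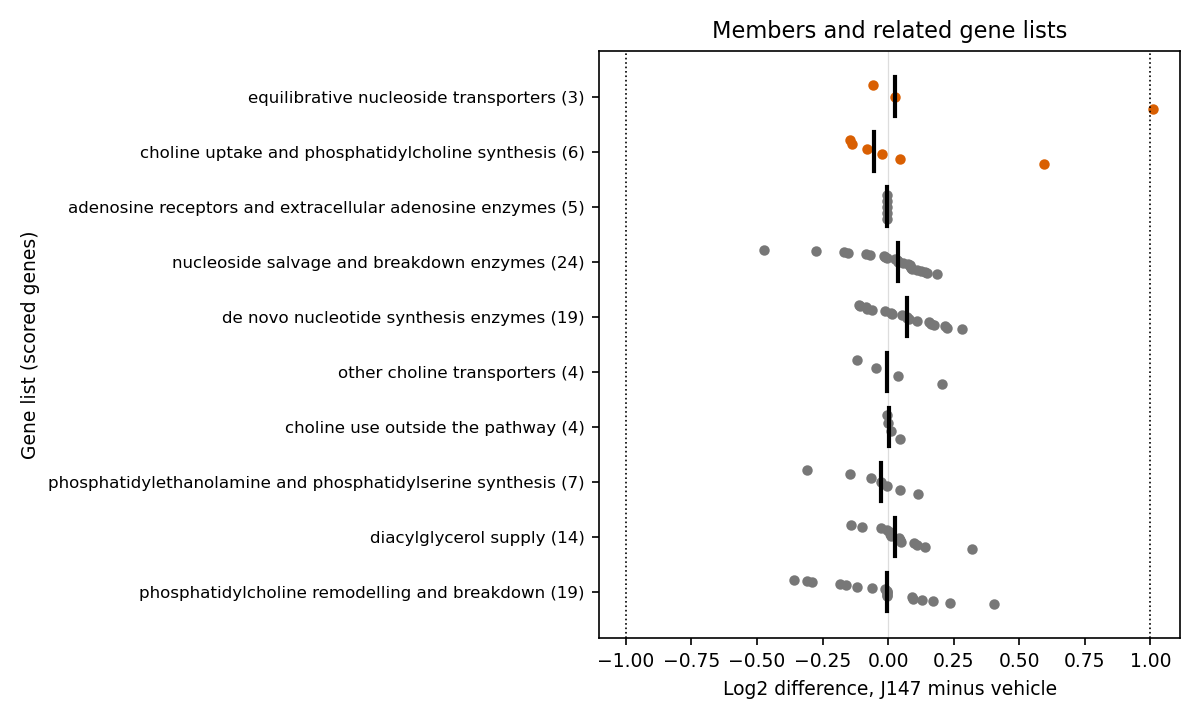
J147 minus vehicle log2 difference (horizontal axis) by the brightest probe set. Points are scored genes, members in orange and related lists in grey (vertical axis, with the scored number after each name), black bars are medians and dotted lines stand at 2-fold. Pcyt1b is among the 7 genes of the phosphatidylethanolamine list. Slc29a2 lies at 1.01 and Chka at 0.59, and the related genes run from -0.47 to 0.40.

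Facts of the whole pair of arrays bear on all these values. On either array about 46% of probe sets lay at the lowest value (46.3% for vehicle and 46.0% for J147), and the SD of the log2 difference over scored probe sets was 0.18. Housekeeping genes, 9 in number, had a median log2 difference of 0.00. Control probe sets moved, with medians of 0.14 for hybridization spikes, -0.14 for labelling spikes and -0.62 for 18S rRNA, and their part in the differences of Slc29a2 and Chka was not tested. Of 8 neuronal markers 5 were at that minimum with and without J147, Map2, Rbfox3, Snap25, Syt1 and Nefl. The other 3, Tubb3, Gap43 and Syp, were above it, as were all 7 fibroblast markers. The neuronal label of these cells was therefore borne out by some of the neuronal markers and not by most of them. Markers of other cell types above that value were 2 of 7 for astrocytes, 2 of 7 for microglia and 0 of 4 for oligodendrocytes.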

How the data were processed

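RNA of 1 vehicle and 1 J147-treated HT22 culture was measured on Affymetrix mouse genome arrays. The authors computed gcRMA values in R, and the deposited values are log2 intensities. Affymetrix Expression Console 1.0 stands beside it in the submitters' processing notes, with the gcRMA version not given in the sources used here. This table holds 45101 probe sets, of which 64 are controls.

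Each array was scaled to a median of 100 over the 45037 other probe sets, and those with a mean above 100 were scored. Of the 45037, 34945 have 1 gene, 932 several and 9160 none in the platform annotation, and symbols were updated through Entrez numbers to the RefSeq table of GRCm38.p6. That table also gave 6 newer symbols for listed genes, the order of genes on chromosomes and, through its promoter windows, the sequences for all 9 members. Probe sets are given no coordinates, since the table names no build. Protein sequences were not used here.

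The members and the lists were chosen with earlier results of these data known. Genes named are the 9 members, the 2 largest differences of each related list together with any of 1.5-fold or more, and the 5 genes nearest to Slc29a2 in log2 difference. Others named were chosen after their values were seen. Alternatives were no scaling, quantile normalization, a lowess curve (span 0.3) subtracted, a pseudocount of 50, no filter or a filter at 200, and 2 other ways to read a gene. Python 3.11.15, numpy 2.4.6, pandas 2.3.3, statsmodels 0.14.6 and matplotlib 3.10.9 were used, and the calculation was tested on simulated data. Precision is limited by the number of arrays, 1 per condition.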

Additional observations from a re-analysis of the deposited data

How the results depend on the processing

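Of 246 values recomputed under an alternative, 240 stayed close to the value reported, which means within 1.5 times for counts, within 1 SD of the 500 neighbours in level for a probe set or gene, and within the SD over scored genes divided by the square root of the list size for a list median. All 72 values of the 18 scored member probe sets stayed close. Part of the 240 was fixed in advance. Without scaling, every difference moves by the same amount, which is below these limits, and a gene with 1 scored probe set keeps its value as a mean. The counts of related genes past 1.5-fold were 0 and stayed 0. Slc29a2 ranged from 0.97 to 1.15 for 1448257_at and from 0.96 to 1.04 for 1447748_x_at, and Chka from 0.59 to 0.62 for 1450264_a_at. With a pseudocount of 50, the count of member probe sets at least 2-fold higher went from 3 to 1, since a pseudocount shrinks differences of low signals by construction. Without probe sets ending in _x_at, _s_at or _a_at, Chka was read from 1453582_at at a log2 difference of 0.31 in place of 0.59, and the median of the nucleoside salvage enzymes was 0.08 in place of 0.04. The number of genes with all of 2 or more probe sets at least 2-fold higher, an alternative added after seeing the data, was 2 with quantile normalization, 2 with the lowess curve and 0 with the pseudocount, in place of 1. No paired analysis was possible because each group has 1 array. The lowest value of the table hides any difference in the 4 member probe sets that lie at it.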

Other observations

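Among the related genes, 4 had a probe set other than the brightest with a log2 difference larger in size than any by the brightest probe set, a feature picked after the values were seen. Gdpd1, a glycerophosphodiester phosphodiesterase, had -0.18 by the brightest and -0.90 by its other scored probe set. Atic, which catalyses the last steps of de novo purine synthesis, had 0.11 by the brightest and 0.55 by the other. Uck2, a kinase of uridine and cytidine, had 0.15 by the brightest, with the other 3 scored probe sets between -0.00 and 0.52. Etnk1, an ethanolamine kinase, had -0.15 by the brightest, with the others down to -0.48.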
